A study of Mus musculus with 4 samples.

Results

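The miR-106b-25 cluster is a group of 3 microRNA hairpins, mir-106b, mir-93 and mir-25, that lie together in an intron of Mcm7. Its 6 mature strands, mmu-miR-106b-5p, mmu-miR-106b-3p, mmu-miR-93-5p, mmu-miR-93-3p, mmu-miR-25-5p and mmu-miR-25-3p, were taken by name from the table of 1915 mature mouse miRNAs, of which 1101 had a count in any library. All 6 had counts, and all 6 were among the 438 miRNAs tested. The strands were counted by small RNA sequencing in MIN6 cells (2 libraries) and in exosomes derived from MIN6 cells (2 libraries). MIN6 is an insulin-producing line from a mouse insulinoma, a tumor of pancreatic beta cells, so it is a single transformed line and not islet tissue. The labels name no treatment, and the cells were grown in medium with serum depleted of exosomes. The exosomes are the vesicles pelleted by ultracentrifugation from conditioned medium pooled over several flasks. The comparison asks which miRNAs the exosome libraries hold relative to MIN6 cells. The labels do not say whether these cells came from the cultures that gave the exosomes.

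Each hairpin of an miRNA gene is cut by Drosha and Dicer into a duplex of a 5p and a 3p strand, and usually only 1 strand is retained by an Argonaute protein while the other is degraded. The retained strand pairs with messenger RNAs mainly through its seed, bases 2 to 8 from the 5′ end. The host gene Mcm7 encodes a subunit of the helicase that opens DNA at replication origins, and the cluster is transcribed with it in dividing cells. The cluster is a paralogue of the miR-17-92 cluster, and strands of both are known to repress cell cycle inhibitors and pro-apoptotic genes such as p21 and Bim.

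The mature sequences are printed with the seed in capitals, since the seed sets which strands can share targets. The deposited sequence equalled the RefSeq entry for all 6 strands.
miR-106b-5p: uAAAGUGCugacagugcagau
miR-93-5p: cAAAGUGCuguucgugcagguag
miR-25-3p: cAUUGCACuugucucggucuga
miR-106b-3p: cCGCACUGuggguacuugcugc
miR-93-3p: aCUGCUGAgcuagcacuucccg
miR-25-5p: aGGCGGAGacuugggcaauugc

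miR-106b-5p and miR-93-5p share the seed AAAGUGC, and miR-25-3p has the seed AUUGCAC. The seeds of miR-106b-3p, miR-93-3p and miR-25-5p occur in 0 other listed miRNAs with a known sequence. The strands are 21 to 23 bases long, so that a read count stands for nearly the same length in each. No other listed miRNA has an identical sequence, and the closest were miR-17-5p and miR-20b-5p at 3 edits from miR-93-5p and miR-92a-3p at 4 edits from miR-25-3p. Outside Mcm7 and the 3 miRNA genes, 0 genes among the 141767 transcripts of GENCODE vM21 hold any of the 6 sequences.

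The hairpins are printed with both mature strands in capitals, to show that the 5p strand comes first in each. The capitals do not mark which strand has more counts.
mir-106b: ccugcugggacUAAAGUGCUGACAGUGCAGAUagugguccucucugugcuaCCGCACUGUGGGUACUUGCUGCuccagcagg
mir-93: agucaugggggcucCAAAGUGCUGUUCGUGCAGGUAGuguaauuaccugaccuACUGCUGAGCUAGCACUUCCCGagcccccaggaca
mir-25: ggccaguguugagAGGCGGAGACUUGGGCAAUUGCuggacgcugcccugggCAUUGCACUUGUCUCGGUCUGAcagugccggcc

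On GRCm38, the build of mm10, the hairpins lie on the minus strand of chromosome 5 from 138165737 to 138165818 (Mir106b), 138165523 to 138165610 (Mir93) and 138165321 to 138165404 (Mir25). They are separated by 126 and 118 bases. All 3 fall within intron 13 of the protein-coding Mcm7 transcript with 15 exons (138165162 to 138165909), and Mir93 and Mir25 also lie inside an exon of a second Mcm7 transcript, annotated as one with a retained intron. RefSeq gave the sequences and positions on GRCm38.p6, and GENCODE vM21 the transcripts.

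**Figure D1:**
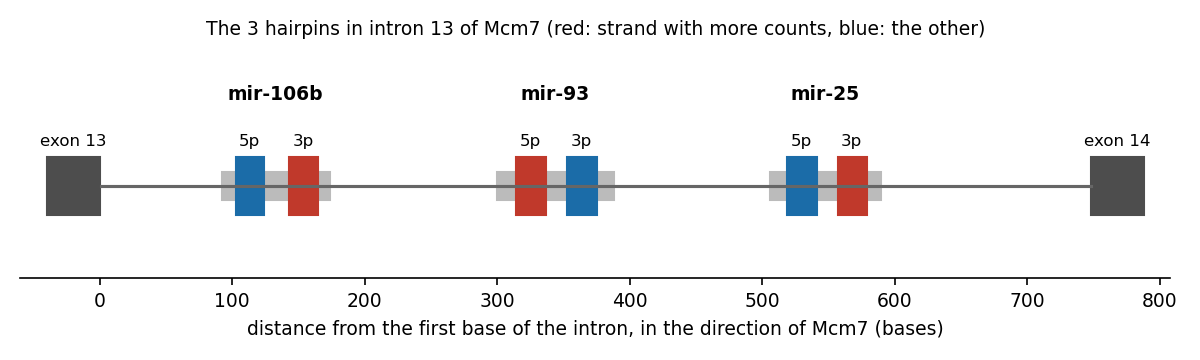
Map of intron 13 of Mcm7, with distance from its first base in the direction of transcription on the horizontal axis (bases). Gray boxes are the 3 hairpins and dark gray boxes the flanking exons (not to length), and the strand with more counts (red) is 3p in mir-106b, 5p in mir-93 and 3p in mir-25.

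Mature miRNAs received 2930217 and 2564068 counts per cell library, but 47447 and 31409 per exosome library. A count of 3, used as the floor, corresponds to 1.02 and 1.17 RPM (counts scaled to the library's mature total) in cells and to 63.2 and 95.5 RPM in exosomes, and floors and intervals cover counting error only. The 4 beta-cell miRNAs checked, miR-375 and miR-7 strands, summed to 44801 and 44562 RPM in cells and to 21940 and 8787 RPM in exosomes. The miR-7 strands and miR-375-5p were lower in exosomes (miR-375-5p 362 and 293 RPM in cells, 126 and 95.5 RPM in exosomes). On this scale miR-375-3p was near its cell level (9113 and 9881 RPM in cells, 10686 and 7068 RPM in exosomes). In the edgeR fit given below, miR-375-3p was called lower in exosomes (log2 fold change -1.43, adjusted p = 0.0475, edgeR). The 13 miRNAs checked for blood, liver, mesenchyme, vessel and muscle summed to 50.5 and 55.0 RPM in cells and to 11212.5 and 5572 RPM in exosomes, and 5 of them had no count in either cell library while 2 had none in either exosome library. Those of muscle did not add to the rise: miR-133a-3p and miR-206-3p had no count in any library. miR-1a-3p had 47 and 29 counts in cells and 3 and 0, at most the floor, in exosomes. miR-486a-5p of blood alone had 5058 RPM in exosome replicate 1, and miR-122-5p of liver 1974 RPM in replicate 2. The erythroid miR-451a had 0 counts in both cell libraries and 33 and 2 in the exosomes. Summed over all hairpin entries, 9.58% to 10.9% of the reads in cells and 32.8% and 42.0% in exosomes lay on neither annotated strand. In cell replicate 1 the entries held 4822504 reads, 527529 of them on neither strand, against 2930217 mature counts. A read may thus be counted at several hairpins. The part of these differences in the results given here was not tested.

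In MIN6 cells the cluster took 5.14% and 5.73% of all mature counts, and most of it was miR-25-3p. miR-25-3p, a strand known to target Bim, had 138198 and 136649 counts, which placed it at rank 7 and rank 6 in the libraries. miR-93-5p, which shares targets with miR-17-5p, had 9157 and 7635 counts. miR-106b-3p had 2150 and 1835 counts. These levels of the more abundant strand of each hairpin (3125 and 2978 RPM for miR-93-5p and 734 and 716 RPM for miR-106b-3p, after 47163 and 53294 RPM for miR-25-3p) were separated by more than the spread between libraries.

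The other strands were rare in cells. miR-25-5p had 484 and 348 counts (165 and 136 RPM). miR-93-3p had 418 and 319 counts (143 and 124 RPM). miR-25-5p was above miR-93-3p within each library, but their RPM ranges overlapped across the libraries. miR-106b-5p, whose seed is that of the miR-17 family, was lowest with 199 and 134 counts (67.9 and 52.3 RPM).

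In exosomes the cluster took 2.98% (95% Wilson interval 2.84 to 3.14) and 0.707% (0.620 to 0.806) of the mature counts, below the share in cells. The exosome libraries also differed from each other far beyond counting error. miR-25-3p had 1162 and 188 counts in the exosomes (24490.5 and 5986 RPM), at rank 10 and rank 25. miR-93-5p had 195 and 16 counts (4110 and 509 RPM), so that replicate 1 lay above the cells and replicate 2 below them on the RPM scale. miR-106b-3p had 25 and 3 counts (527 and 95.5 RPM), the second of which is at the floor.

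miR-25-5p had 20 and 11 counts in the exosomes (422 and 350 RPM), above both cell libraries on the RPM scale. miR-93-3p had 7 and 4 counts (148 and 127 RPM), where replicate 1 lay above both cell libraries and replicate 2 between them. miR-106b-5p had 7 and 0 counts, and the count of 0 allows up to 95.5 RPM, above its level in either cell library. Within the exosomes, miR-25-3p was the highest strand in both libraries, while miR-106b-3p and miR-25-5p overlapped in their ranges.

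**Figure D2:**
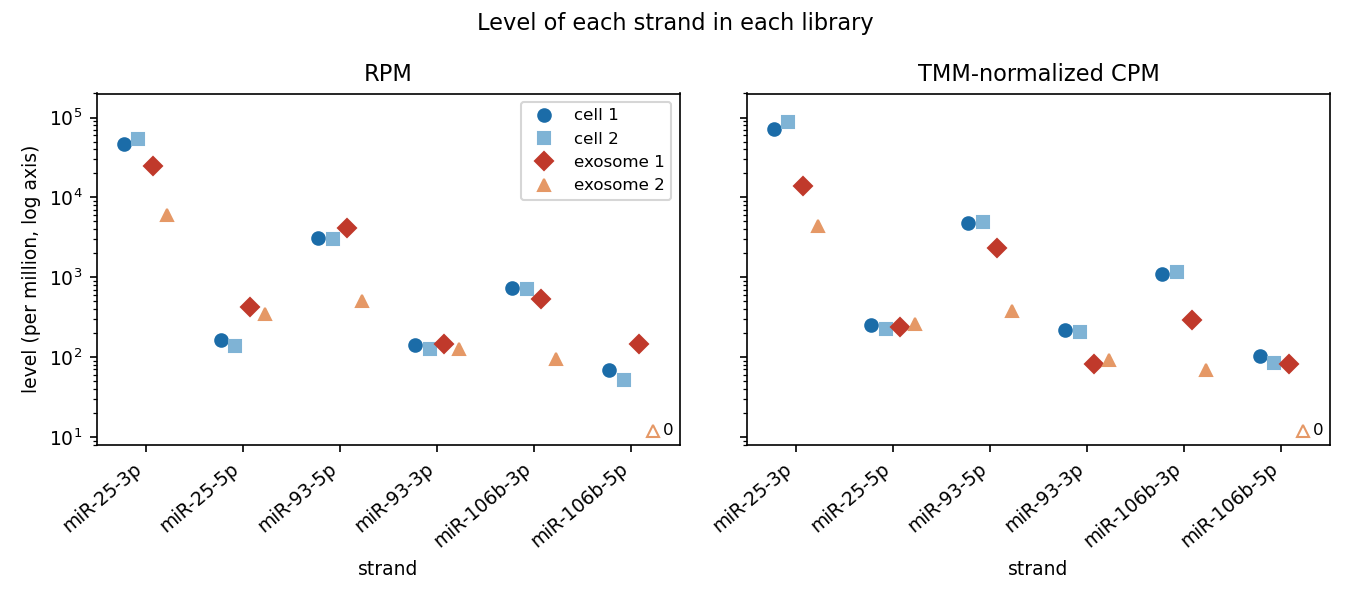
Level of each strand in each of the 4 libraries, as RPM (left) and as TMM-normalized CPM (right), on log axes. Open symbols stand for a count of 0, which miR-106b-5p had in exosome replicate 2. miR-25-3p is below the cells in both exosome libraries on both scales, and miR-25-5p is at the cell level on the right and above it on the left.

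The counts of all 438 tested miRNAs were fitted in edgeR and the groups set against each other with its quasi-likelihood test. Libraries were scaled by TMM factors, which correct the library total for a difference in composition and turn RPM into normalized CPM, and p-values were adjusted over all of these miRNAs by the Benjamini-Hochberg method. Log2FC and SE stand for the log2 fold change, exosome over cell, and its standard error. In this fit 3 of the 6 strands fell, 1 from each hairpin, and 0 rose. Over all tested miRNAs 29.5% were called lower and 23.7% higher. The median log2 fold change of the 6 was -1.55, and that of all tested miRNAs was -0.75. These levels are relative to the other miRNAs of a library and do not give a number of copies. Fewer copies in each vesicle, fewer vesicles with the miRNA and more reads from other miRNAs cannot be told apart in bulk libraries.

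miR-25-3p stood at 79305 ± 10980.4 normalized CPM in cells and 9039 ± 6592 in exosomes (SD, n = 2 each), with log2FC -3.13 (SE 0.80, adjusted p = 0.0344, edgeR). At an equal normalized level, 6726 and 3406 counts would fall on it in the exosome libraries, against the 1162 and 188 found. An equal RPM would give 2383 and 1578. miR-106b-3p stood at 1141 ± 39.8 normalized CPM in cells and 182 ± 159 in exosomes, with log2FC -2.55 (SE 0.69, adjusted p = 0.0404, edgeR). An equal normalized level would give it 96.8 and 49.0 counts and an equal RPM 34.4 and 22.8, against the 25 and 3 found. miR-93-3p stood at 210 ± 9.28 in cells and 87.8 ± 7.51 in exosomes, with log2FC -1.27 (SE 0.37, adjusted p = 0.0475, edgeR). Its 7 and 4 exosome counts lay below the 17.8 and 9.01 of an equal normalized level, but near the 6.34 and 4.19 of an equal RPM.

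The remaining strands did not pass. miR-93-5p stood at 4803 ± 88.1 normalized CPM in cells and 1336 ± 1362 in exosomes, with log2FC -1.82 (SE 0.91, adjusted p = 0.157, edgeR). miR-106b-5p had log2FC -0.88 (SE 0.89, adjusted p = 0.433, edgeR), on 7 and 0 counts in the exosome libraries. The level of the cells would give 7.99 and 4.05 counts there at an equal normalized CPM, and 2.85 and 1.89, under the floor, at an equal RPM. miR-25-5p stood at 236 ± 20.4 in cells and 246 ± 14.4 in exosomes, with log2FC 0.05 (SE 0.35, adjusted p = 0.918, edgeR). By normalized CPM every strand but miR-25-5p, that is 5 of the 6, was lower in each exosome library than in either cell library. The same held for 51.8% of all tested miRNAs.

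The calls depended on the scaling. Since a scaling moves all miRNAs by nearly the same step, the order of the strands and their distance from the median of all miRNAs are nearly fixed by construction. With library size alone 0 of the 6 strands were called by edgeR, and 1, miR-25-5p, had an unadjusted p under 0.05, with a higher level in exosomes. With upper quartile scaling miR-25-3p alone was called. These scalings moved the median of all tested miRNAs from -0.75 to 0.61 and -0.07 on the log2 scale, and the RLE scaling moved it to -0.83. As a description, relative to that median miR-25-3p lay at -2.40 to -2.32 under the 4 scalings and miR-106b-3p at -1.83 to -1.77. miR-93-5p lay at -1.12 to -0.99 and miR-93-3p at -0.54 to -0.51. miR-106b-5p lay at -0.15 to -0.10, and miR-25-5p was above the median, at 0.77 to 0.82. When cell replicate 1 or 2 was left out, edgeR called 0 of the 6 strands and 0 of all tested miRNAs, and an unadjusted p under 0.05 was given to 0 of the 6 and to 159 and 143 of all. The lowest adjusted p among the 6 was then 0.144 and 0.170, both for miR-106b-3p (edgeR). In these fits the lone cell library is assumed to vary like the exosome pair. In the fits without an exosome library the spread comes from the cell pair alone, whose libraries differed less. Without exosome replicate 1, the log2 fold change was -1.22 for miR-93-3p and -3.74 for miR-93-5p. miR-106b-5p, then with no exosome count, can be bounded at a log2 fold change of -0.48 or below. Without exosome replicate 2, miR-93-5p had a log2 fold change of -1.02. Over all alternatives the adjusted p ranged from 1.68e-05 to 0.256 for miR-25-3p, from 0.000240 to 0.292 for miR-106b-3p, from 0.0118 to 0.929 for miR-93-3p and from 5.27e-05 to 0.783 for miR-93-5p (edgeR or DESeq2).

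**Figure D3:**
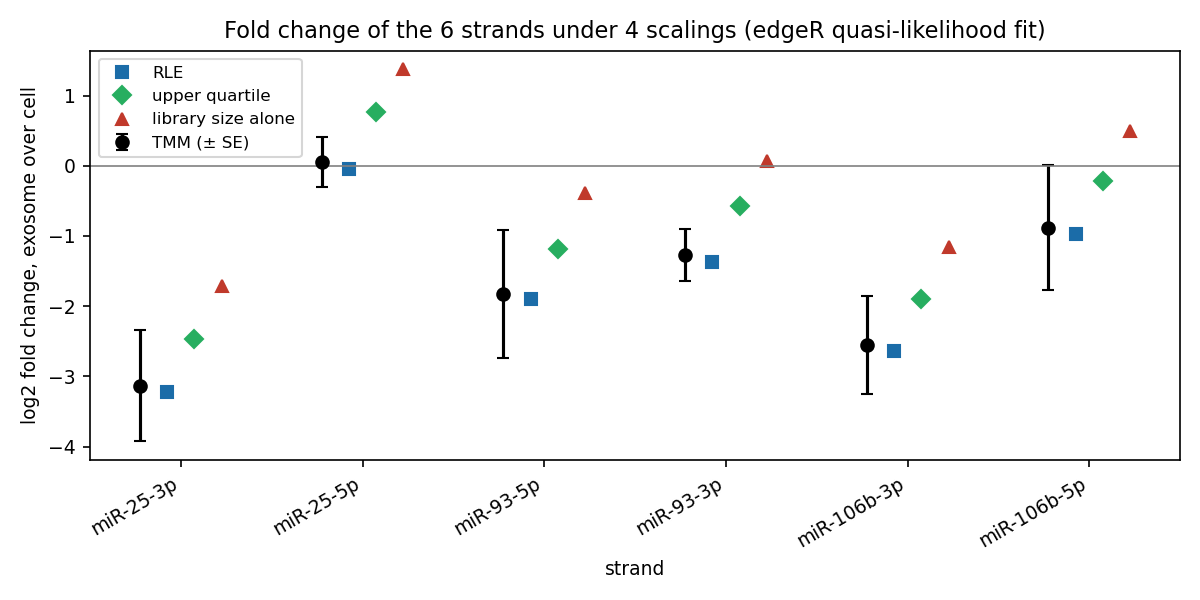
Log2 fold change of each strand, exosome over cell, in the edgeR quasi-likelihood fit under TMM (black, ± standard error), RLE, upper quartile and library-size scaling. The whole set moves up by the same step with library size alone, where miR-93-3p and miR-106b-5p turn to 0.06 and 0.50. miR-25-3p is the lowest and miR-25-5p the highest strand.

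Among strands counted in both exosome libraries, the libraries disagreed mostly on the more abundant ones. This leaves out the rare miR-106b-5p, whose 7 and 0 counts give no ratio. Replicate 1 held 3.13 times the normalized CPM of replicate 2 for miR-25-3p, 6.17 times for miR-93-5p and 4.22 times for miR-106b-3p. For miR-25-5p and miR-93-3p the ratios were 0.921 and 0.886, so that the rare strands of mir-25 and mir-93 matched closely, on 4 to 20 counts. Among the 175 tested miRNAs above the floor in both exosome libraries, the median size of this ratio was 1.98. In cells the ratios of the 6 strands ran from 0.822 to 1.21, near the median size of 1.12 over the 151 miRNAs above the floor in all libraries.

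Shares within a library do not depend on the scaling. The mir-93 hairpin, both strands together, gave 6.36% and 5.41% of the cluster's counts in cells and 14.3% (95% Wilson interval 12.5 to 16.2) and 9.01% (5.91 to 13.5) in exosomes. The mir-25 hairpin gave 92.1% and 93.2% in cells and 83.5% (81.5 to 85.3) and 89.6% (84.9 to 93.0) in exosomes. The groups did not overlap for either hairpin, and the exact permutation test of 2 libraries against 2 gave p = 0.333, two-sided, the smallest value it allows. The hairpin shares of a library add up to the whole and mir-106b gives little of it. The rise of mir-93 and the fall of mir-25 are thus largely the same result. The mir-106b hairpin gave 1.56% and 1.34% in cells and 2.26% and 1.35% in exosomes, where the groups overlapped (p = 0.667, exact permutation test). The intervals of exosome replicate 2 include a cell value for both mir-93 and mir-25. The difference between exosomes and cells was 5.75 percentage points for mir-93 and -6.11 for mir-25, and without exosome replicate 1 it was 3.12 and -3.02. The number of miR-25-3p counts per miR-93-5p count was 15.1 and 17.9 in cells and 5.96 and 11.8 in exosomes.

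The strands of a hairpin are cut from it in equal number. What sets the ratio of their counts was not tested. In mir-25 the rare strand, miR-25-5p, took 0.349% and 0.254% of both strands' counts in cells and 1.69% (95% Wilson interval 1.10 to 2.60) and 5.53% (3.11 to 9.63) in exosomes. Put as a ratio, 286 and 393 counts of miR-25-3p were found for each miR-25-5p in cells, and 58.1 and 17.1 in exosomes. Both exosome libraries were outside the range of the cells, with an exact permutation p of 0.333, the smallest possible. In a fit of strand usage over the 99 hairpins with exactly 2 tested strands, chosen after these shares were seen, mir-25 differed between exosomes and cells (log2 change of the 3p to 5p ratio -3.18, adjusted p = 0.00446 from edgeR's diffSpliceDGE on the quasi-likelihood fit). This fit called 27.3% of the hairpins, and the median size of the change over hairpins was 2.04, so a shift of strands was frequent in these libraries. Without exosome replicate 1 or 2 the adjusted p for mir-25 was 0.00175 and 0.00452, and without cell replicate 1 or 2 it was 0.204 and 0.275 (edgeR, same fit). The fits without an exosome library take their spread from the cell pair alone, which is the tighter pair, so their low p-values are not further support.

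For the other hairpins no shift passed. miR-93-3p, the rare strand of mir-93, took 4.37% and 4.01% of both strands' counts in cells and 3.47% and 20% in exosomes, where the second value rests on 4 of 20 counts (95% Wilson interval 8.07 to 41.6). miR-106b-5p took 8.47% and 6.81% in cells, 21.9% in exosome replicate 1 (7 of 32 counts, interval 11.0 to 38.8) and 0 of 3 counts in replicate 2. The groups overlapped in both hairpins. The adjusted p of the strand usage fit was 0.669 for mir-93 and 0.280 for mir-106b (edgeR, same fit). It was 0.0232 for mir-93 without exosome replicate 1 and 0.0295 for mir-106b without exosome replicate 2. In all 4 libraries miR-106b-3p had more counts than miR-106b-5p, although the 5p strand carries the miR-17 seed.

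**Figure D4:**
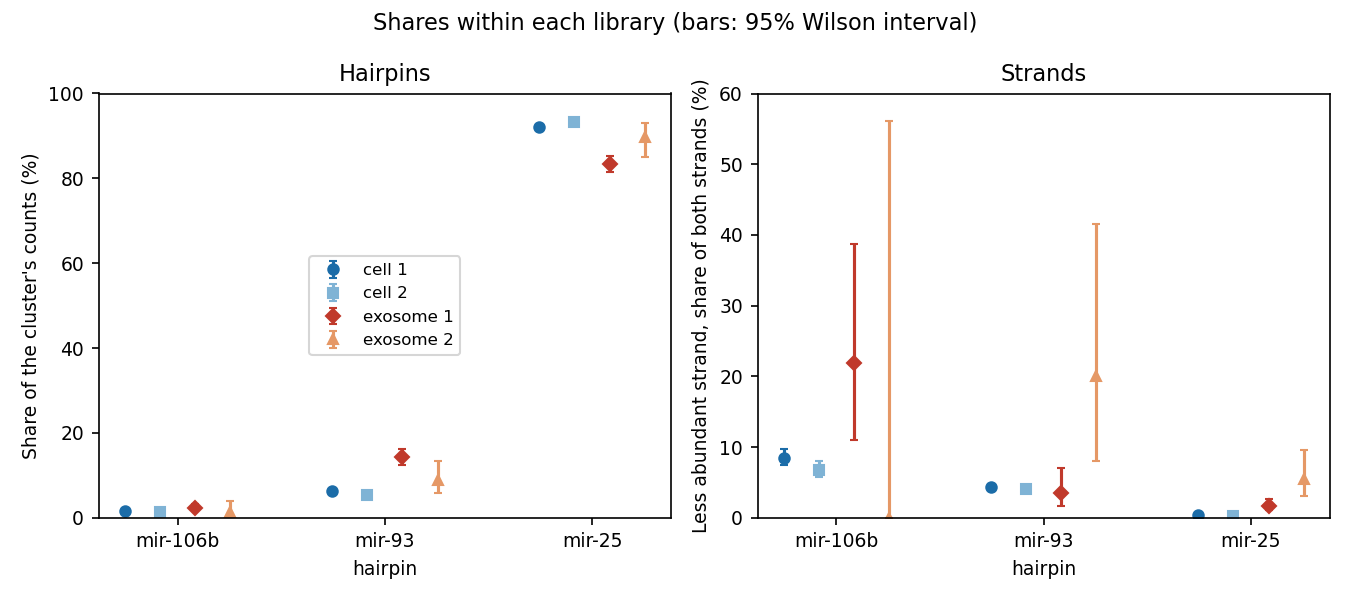
Share of the cluster's counts from each hairpin (left) and share of the less abundant strand in both strands of its hairpin (right), in percent, per library, with 95% Wilson intervals as bars. mir-93 gives a larger share in both exosome libraries (14.3% and 9.01%) than in the cells, and miR-25-5p a larger share of mir-25 (1.69% and 5.53%), while the intervals for the rare strands of mir-106b and mir-93 in exosome replicate 2 are wide.

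The seeds of the cluster are shared by 10 other listed miRNAs, 5 with the seed AAAGUGC and 5 with AUUGCAC. Of the 10, 6 had a count and 4 were tested. In cells, the cluster held almost all counts with these seeds. miR-25-3p made up 99.8% of the counts with AUUGCAC in both cell libraries and 88.9% (95% Wilson interval 87.1 to 90.5) and 89.5% (84.6 to 93.0) in the exosome libraries. miR-93-5p made up 97.9% and 98.3% of the counts with AAAGUGC in cells and 80.6% (75.1 to 85.1) and 64.0% (44.5 to 79.8) in exosomes. For both seeds the groups did not overlap (exact permutation p = 0.333, the smallest possible).

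In exosomes the rest of these counts came mostly from strands of the paralogous clusters, while in cells it came mostly from miR-32-5p and miR-92b-3p for AUUGCAC and from miR-106b-5p for AAAGUGC. The leading paralogous strands are shown with their seeds because they differ from miR-25-3p and miR-93-5p at few bases and not in the seed.
miR-92a-3p: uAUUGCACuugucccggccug
miR-17-5p: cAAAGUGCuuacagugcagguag

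miR-92a-3p, a strand listed for the paralogous clusters, had 42 and 22 counts in cells and 137 and 21 in the far shallower exosome libraries. It rose by 5.88 on the log2 scale (SE 0.83, adjusted p = 0.0103, edgeR). The number of miR-25-3p counts per miR-92a-3p count was 3290 and 6211 in cells and 8.48 and 8.95 in exosomes. The exosome libraries, which disagreed on the level of miR-25-3p, thus gave similar ratios. The second rests on 21 counts of miR-92a-3p, too few to tell how close they are. miR-17-5p had 1 and 0 counts in cells and 36 and 9 in exosomes, at least 183-fold more by normalized CPM when each cell library is set to the floor of 3 counts (adjusted p = 0.00650, edgeR).

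miR-92b-3p had 99 and 71 counts in cells and 5 and 1 in exosomes, a log2FC of -0.08 (adjusted p = 0.938, edgeR). miR-32-5p had 181 counts in each cell library and 3 and 0 in exosomes, at most the floor (adjusted p = 0.0810, edgeR). So 2 of the 4 tested relatives were higher and 0 lower, against 23.7% higher and 29.5% lower over all tested miRNAs, and miR-17-5p could pass the filter on low counts through the exosomes alone.

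Of the 22 strands listed for the paralogous miR-17-92 and miR-106a-363 clusters, 14 had no count in any library. In total the list held 45 and 24 counts in cells, against 150606 and 146920 for the miR-106b-25 cluster, and 206 and 45 in exosomes, against 1416 and 222. The 4 that were tested, miR-17-5p, miR-19b-3p, miR-19b-2-5p and miR-92a-3p, were all called higher in exosomes. Since 3 of the 4 were at or under the floor in both cell libraries, they could pass the filter through the exosomes alone and their number is no support for a direction. miR-19b-3p was at least 88.1-fold higher and miR-19b-2-5p at least 87.5-fold higher. They were higher in the same libraries as the miRNAs of blood, liver and vessels given above, whose part in this was not tested.

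**Figure D5:**
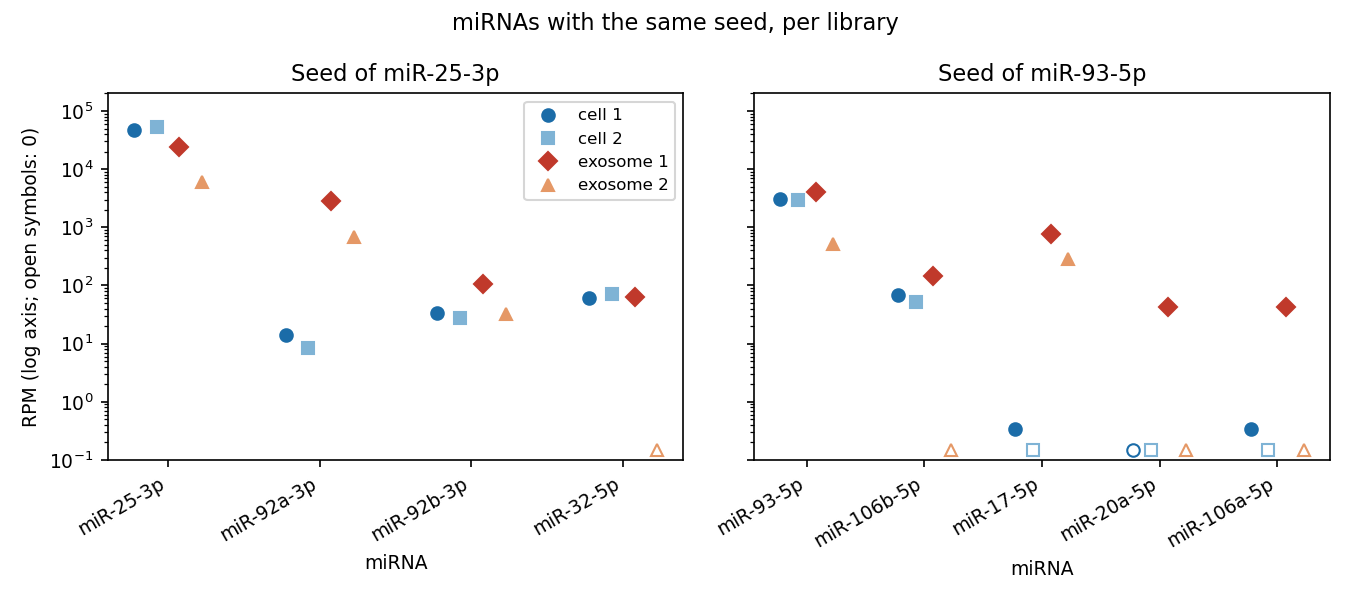
RPM of the miRNAs that carry the seed of miR-25-3p (left) and of miR-93-5p (right) in each library, on a log axis, with open symbols for a count of 0. Strands of the Mcm7 cluster lead in all 4 libraries, and miR-92a-3p and miR-17-5p are near the bottom in cells (42 and 22, and 1 and 0 counts) and well above it in exosomes (137 and 21, and 36 and 9 counts).

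The miRNAs most like each leading strand were found by the Euclidean distance of log2 normalized CPM, centered per miRNA, over the 4 libraries. They were miR-361-3p (distance 0.20) and let-7i-5p (0.26) for miR-25-3p, and miR-200b-5p (0.21) and miR-421-3p (0.34) for miR-106b-3p. let-7i-5p had 51950 and 42324 counts in cells and 354 and 67 in exosomes, the nearest of these to miR-25-3p in level. In the exosomes miR-361-3p had 6 and 1 counts, miR-200b-5p 21 and 3 and miR-421-3p 19 and 3. Their likeness thus rests on values at or under the floor in exosome replicate 2. For miR-93-5p the nearest were miR-466b-3p and miR-466c-3p, both at 0.04, which had the same 51 and 43 counts in cells and 1 and 0 in exosomes, too few for the likeness to be informative.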

How the data were processed

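Small RNA of MIN6 cells and MIN6-derived exosomes (2 libraries each) was made into libraries with the SMARTer smRNA-Seq kit, which adds a poly(A) tail, and sequenced on an Illumina instrument. After adapter trimming and removal of rRNA reads, the authors aligned what was left to the genome (mm10 per the labels), miRBase and RNAcentral. They deposited raw counts and RPM for each mature miRNA, and counts for each hairpin including those on neither strand. The deposited RPM equalled the count over the library sum (largest difference 4.99e-07). Another 8 columns, reads per strand of each hairpin, were not used.

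Groups and replicate numbers came from the labels. Nothing says that the libraries came from separate cultures, so p-values measure the spread between these samples, which may be technical. Libraries of a group differed beyond counting noise (chi-square over its degrees of freedom: cells 19.5, exosomes 58.2). miRNAs were kept by filterByExpr (minimum count 10), which left 438. Tests used edgeR 4.0.16 in R 4.3.3 (glmQLFit and glmQLFTest, TMM factors, Benjamini-Hochberg adjustment, threshold 0.05), and each standard error was the fold change on the log2 scale divided by the root of its F statistic. Strand usage was fitted with diffSpliceDGE. Shares carry 95% Wilson intervals and two-sided exact permutation tests (scipy 1.17.1). The fits were run on simulated data with large shifts (medians: 91.8% of the changed miRNAs recovered, 5.83% of calls false). All simulated libraries had a common dispersion of 0.164. The wider spread of the exosome pair was thus not simulated, and the outcome does not cover it or smaller shifts. Seeds were read from sequences of 1461 miRNAs in the files and 390 in RefSeq, and 64 had none. The members, lists and tests were chosen with earlier results of these data known. All members and tested relatives are named, with the 2 miRNAs nearest to each leading strand. Alternatives were RLE, library-size and upper quartile scaling, DESeq2 1.42.0, edgeR's exactTest as in the study, other filters, a replicate block, and leaving out abundant miRNAs or each library. The cluster's summed share was given no test.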

Additional observations from a re-analysis of the deposited data

Results flagged for a closer look

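Reads that lay on the hairpins outside both annotated strands were more frequent in exosomes than in cells for mir-93 and, in 1 library, for mir-25. On mir-93 they made up 4.72% of the reads in exosome replicate 1 (10 of 212, 95% Wilson interval 2.58 to 8.46) and 4.76% in replicate 2 (1 of 21, interval 0.846 to 22.7), against 0.0418% and 0.0377% in cells. On mir-25 they made up 0.756% in exosome replicate 1 (9 of 1191, interval 0.398 to 1.43) and 0 of 199 reads in replicate 2, against 1 read of 138683 and 1 of 136998 in cells. On mir-106b they were 6 of 2355 and 4 of 1973 reads in cells and 0 of 32 and 0 of 3 in exosomes, which allows up to 10.7% and 56.1% (upper Wilson bounds). The shares on mir-93 and mir-25 are below the 32.8% and 42.0% found over all hairpins in the exosome libraries.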

How the results depend on the processing

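Of the values for single strands under the alternatives, 50 kept their direction and side of the threshold, 13 no longer passed, 5 passed newly and 7 changed sign. The sign changed for miR-106b-5p (0.50) and miR-93-3p (0.061) with library size alone, and for miR-25-5p, which lay near 0, with RLE (-0.051), DESeq2 (-0.052), no filter (-1.26), the most abundant miRNAs left out (-0.11) and without cell replicate 2 (-0.029, in a range of -0.029 to 0.15 over the libraries left out). The lower calls among the 6 strands numbered 3, or 0 with library size alone, 1 with upper quartile scaling, 2 with DESeq2 (miR-93-3p lost, adjusted p = 0.0591), 2 with at least 10 counts in every library, 4 with no filter and 0 to 4 with each library left out. With at least 10 counts in every library 1 paralogue strand and 1 seed relative were called higher in place of 4 and 2, because fewer miRNAs were tested, and with each library left out the numbers were 0 to 4 and 0 to 2. A seed relative, miR-32-5p, was called lower by the exactTest (1) and with no filter (1), and with each library left out 0 to 1 were. Of the 6 strands, only miR-25-3p, miR-25-5p and miR-93-5p had at least 10 counts in every library and were tested under that filter. There miR-25-3p and miR-93-5p were called lower. The cause was not tested for the other changes. The difference of the cluster's share between exosomes and cells, -3.59 percentage points, was -8.36 without the 5 most abundant miRNAs of each group, and -4.73 to -2.45 with each library left out. The difference in the hairpin share of mir-106b ranged from -0.10 to 0.81 points and that in the share of the more abundant strand from -14.2 to 7.64 for mir-106b, -15.8 to 0.72 for mir-93 and -5.23 to -1.39 for mir-25 when a library was left out. The hairpin shares of mir-93 and mir-25 then ranged from 3.12 to 8.38 and from -9.19 to -3.02 points. The adjusted p of the strand usage fit then ranged from 0.00175 to 0.275 for mir-25, 0.0232 to 0.871 for mir-93 and 0.0295 to 0.731 for mir-106b. The labels pair no samples beyond a shared number, and the deviations of same-numbered libraries correlated at 0.19. The fit with a replicate block called 2 of the 6 strands lower (miR-93-3p at -1.27 did not pass, adjusted p = 0.230) and 109 lower and 117 higher of all miRNAs, against 129 and 104. Over all tested miRNAs the lower calls ranged from 30 with library size alone (137 higher) to 202 with no filter (104 higher). With at least 10 counts in every library 40 were lower and 37 higher, and without cell replicate 1 or 2 there were 0 calls. Depth limits the rare strands, which had 20 or fewer counts in each exosome library.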
